A study of Mus musculus with 69 samples.

Results

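Embryonic stem (ES) cells given GSK343 were compared with ES cells given the vehicle DMSO, before any differentiation had begun. The comparison rests on 4 of the 69 samples of the series. They are 2 libraries of GSK343-treated ES cells and 2 of DMSO-treated ES cells, and the members were taken by their labels and not by any measured value. All 4 libraries were made from total RNA of CJ7 cells, an established mouse ES cell line, grown with LIF in medium with 20% serum on a layer of mouse embryonic fibroblasts. GSK343 was given at 4 µM for 3 days, and DMSO in an equal volume for the same time. Embryoid bodies, aggregates of differentiating cells kept in GSK343 or DMSO throughout, were collected at day 4 and day 8, with 2 libraries each. Whether the libraries came from separate cultures is not stated, so p-values measure the spread between these libraries, which may be technical. The 2 GSK343 libraries held 19.6 and 5.01 M (mega) reads and the 2 DMSO libraries 17.7 and 20.5 M, so that 1 read stood for more in GSK343 library 2.

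Polycomb repressive complex 2 (PRC2) places methyl groups on lysine 27 of histone H3. Its catalytic subunit is EZH2, with EZH1 as a related enzyme, and both work only together with the core subunits EED and SUZ12. The trimethylated mark, H3K27me3, lies over silent developmental genes in ES cells and is bound by canonical forms of a further complex, PRC1. GSK343 is a small molecule that competes with the methyl donor of EZH2. ES cells that lack PRC2 are known to keep renewing themselves, while their differentiation is impaired. Levels of the H3K27me3 mark in the treated cells are not analysed here, so the extent of inhibition is not known from these values.

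No gene of 14016 tested passed an adjusted p of 0.05 between GSK343 and DMSO ES cells (limma, Benjamini-Hochberg), which is a share of 0% called. Limma-voom on the reads recovered from the values also called 0. The values were RPKM, reads corrected for gene length and library size, on the scale log2(RPKM + 1), and differences are GSK343 minus DMSO on that scale, which understates the change of low genes. At an unadjusted p of 0.05, 669 genes or 4.77% differed, 400 of them (2.85%) higher and 269 (1.92%) lower in GSK343 cells. That split depended on scaling, since median-of-ratios scaling gave 309 higher and 354 lower. The 5th and 95th percentiles of the log2 difference over all genes were -0.30 and 0.37, around a median of 0.04. The 95% interval lay inside -1 to 1 for 12907 genes (92.1%), against 12358 (88.2%) for the same contrast at day 4 and 9464 (67.5%) at day 8. The absolute log2 difference passed 1 in 31 genes in ES cells, in 214 at day 4 and in 1849 at day 8. The adjusted p passed 0.05 for 88 genes (0.628%) at day 4 and 4434 (31.6%) at day 8, with the same number of libraries a side.

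**Figure D1:**
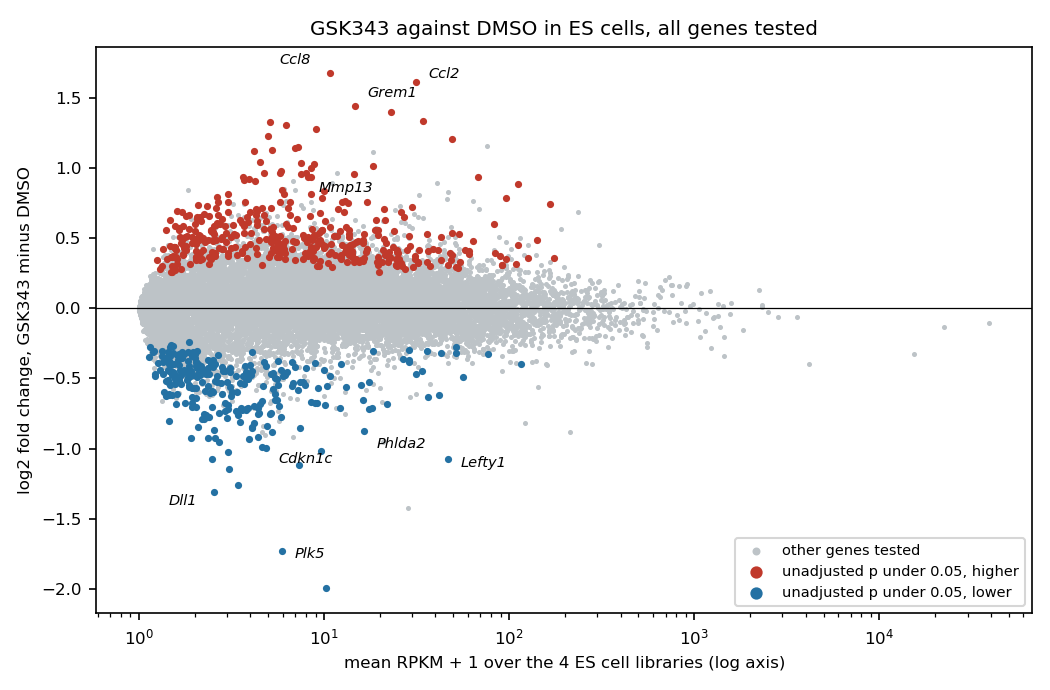
Each point is 1 of the 14016 genes tested, with its mean RPKM + 1 over the 4 ES cell libraries on the horizontal log axis and the log2 difference of GSK343 minus DMSO on the vertical axis. Coloured points are the 400 genes higher and the 269 lower at an unadjusted p of 0.05, none of which passed the adjusted threshold.

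The smallest adjusted p was 0.0919 (limma) and was shared by 5 genes, of which 3 were higher and 2 lower in GSK343 cells. Ccl2, a chemokine that draws monocytes, had 52.5 and 39.7 RPKM in GSK343 cells, against 12.2 and 16.7 in DMSO cells. Grem1, a secreted antagonist of BMP ligands, had 25 and 16.2 RPKM in GSK343 cells, against 6.04 and 7.61 in DMSO cells. Mmp13, a collagenase, had 10.7 and 8.59 RPKM in GSK343 cells, against 4.55 and 4.32 in DMSO cells. For each of these genes both GSK343 libraries stood above both DMSO libraries, with log2 differences of 1.61 (95% interval 1.14 to 2.08), 1.44 (1.0 to 1.88) and 0.96 (0.67 to 1.26). The other two, named after their values were seen, were at low levels. Sowaha had 0.0704 and 0.0552 RPKM in GSK343 cells, against 0.782 and 0.929 in DMSO cells. 1700016K19Rik had 0.775 and 0.434 RPKM in GSK343 cells, against 2.40 and 2.33 in DMSO cells.

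Among the 12 largest differences on the higher side by the naming rule were the chemokines Ccl8, Ccl2 and Ccl7, the BMP antagonist Grem1, and the matrix or matrix-binding genes Mgp, Thbs2 and Dcn. The others were the matrix metalloproteinase Mmp3, the mesenchymal transcription factor Twist2, the endothelial receptor Thbd, the basophil protease Mcpt8, and Crct1. Ccl7 had 38.3 and 25.8 RPKM in GSK343 cells, against 8.5 and 15 in DMSO cells. Ccl8 had 14.5 and 14.9 RPKM in GSK343 cells, against 1.66 and 8.01 in DMSO cells, so the DMSO libraries lay further apart from each other than the GSK343 libraries. Crct1 had 6.82 and 5.85 RPKM in GSK343 cells, against 1.81 and 2.04 in DMSO cells. The log2 differences of the 12 ran from 1.14 for Mcpt8 to 1.68 for Ccl8, and the groups did not overlap for any of them, which the rule required. Over all genes tested, 18.8% did not overlap in this direction and 13.3% in the other.

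**Figure D2:**
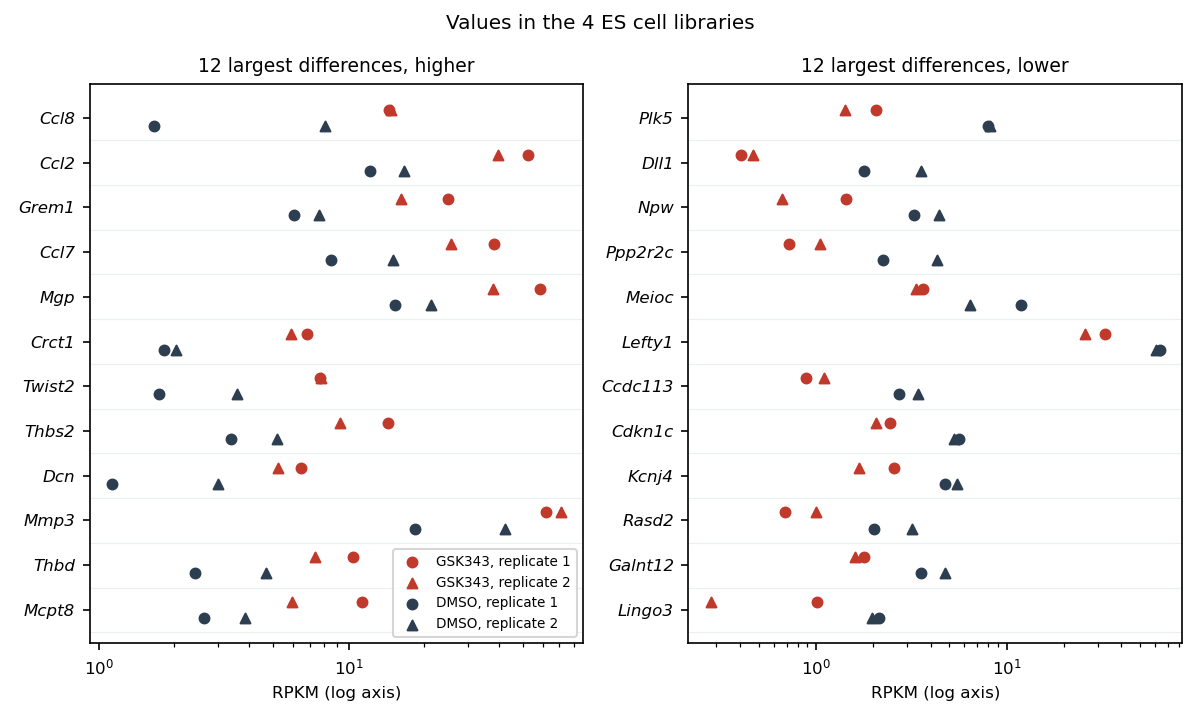
RPKM of the 12 genes with the largest higher (left) and the 12 with the largest lower (right) values in GSK343 cells, on a log axis, with GSK343 libraries in red above DMSO libraries in dark blue, circles for replicate 1 and triangles for replicate 2. In every one of the 24 genes the GSK343 and DMSO libraries are apart, as the rule for choosing them required, and no gene passed the adjusted threshold.

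Markers of feeder fibroblasts moved with these genes. Of 38 listed feeder and mesenchyme genes 36 were tested, and all 36 had log2 differences above 0, with a median of 0.62 against 0.04 over all genes. All 36 were also above 0 under median-of-ratios scaling. At an unadjusted p of 0.05, 10 were higher and none lower (limma), that is 27.8% of the list against 2.85% of all genes, and none passed after adjustment. Lox, which cross-links collagen, had 30.6 and 16.9 RPKM in GSK343 cells, against 10.3 and 11.3 in DMSO cells. Vim, the intermediate filament of mesenchymal cells, had 272 and 150 RPKM in GSK343 cells, against 122 and 119 in DMSO cells. Col1a1, the main chain of type I collagen, had 15.3 and 4.99 RPKM in GSK343 cells, against 4.64 and 5.07 in DMSO cells, so the groups overlapped and only GSK343 library 1 stood apart. Thy1, a fibroblast surface marker, had 7.61 and 4.26 RPKM in GSK343 cells, against 5.02 and 5.17 in DMSO cells.

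Summed over 10 defining fibroblast markers, the level was 159 and 94.7 RPKM in GSK343 cells, against 61.5 and 84.5 in DMSO cells. Both groups carried the markers, none was at 0, and 4 of 10 were higher without overlap, as were 18.8% of all genes. The sum of 3 smooth muscle markers was 71.0 and 29.9 RPKM in GSK343 cells, against 27.3 and 33.3 in DMSO cells. At day 4, in embryoid bodies, the fibroblast sum was 4.67 and 5.64 RPKM with GSK343, against 8.17 and 8.63 with DMSO. A different number of fibroblasts and a different amount of RNA per fibroblast cannot be told apart in bulk libraries, and the part of the feeder cells in the genes named above was not tested. Without GSK343 replicate 1 the list median was 0.21, with 29 of 36 members above 0 and 4 at an unadjusted p of 0.05, and without GSK343 replicate 2 it was 1.08 with 18. Without DMSO replicate 1 it was 0.43 with 4 members.

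In a separately normalized table of EZH2-mutant and wild-type CJ7 ES cells, with 3 libraries each, Lox spread widely within groups. There Lox had 4.15, 19.13 and 11.1 RPKM in mutant ES cells, against 3.41, 3.77 and 105 in wild-type ES cells. The spread of Lox among libraries of 1 genotype was thus wider than the difference between GSK343 and DMSO cells. The naming rule also took up genes that passed the adjusted threshold when 1 ES library was left out. Without GSK343 replicate 2 there were 16, all higher (limma, smallest adjusted p 0.0107). They were Ccl2, Cd44, Cd53, Fibin, Grem1, Gzme, Inhba, Lox, Mcpt8, Mmp10, Mmp13, Olr1, Pappa, Prrx1, Tfpi2 and Tm4sf1. Without DMSO replicate 2 there were 2, the chemokines Ccl11 (adjusted p 0.0124) and Ccl8 (adjusted p 0.00186, limma), and without either of the remaining libraries there were none. Each of these fits left 1 library in a group. All calls without GSK343 replicate 2 thus rest on GSK343 library 1, and those of Ccl11 and Ccl8 on DMSO library 1. For the genes called without GSK343 replicate 2, the lowest log2 difference over the alternatives ran from -0.20 for Gzme to 1.40 for Ccl2. It was 0.23 for Fibin and 0.33 for Cd44. For 3 of these genes the GSK343 and DMSO libraries overlapped. Inhba, an activin subunit, had 12.1 and 2.54 RPKM in GSK343 cells, against 3.41 and 2.22 in DMSO cells, and Gzme and Tfpi2 overlapped in the same way.

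The genes with the largest differences in the other direction were of another kind. Plk5, a member of the polo-like kinase family, had 2.08 and 1.42 RPKM in GSK343 cells, against 7.95 and 8.17 in DMSO cells, a log2 difference of -1.73 (95% interval -2.51 to -0.95, limma adjusted p 0.27). Lefty1, a secreted inhibitor of Nodal signalling, had 32.9 and 25.6 RPKM in GSK343 cells, against 63.5 and 60.9 in DMSO cells (log2 difference -1.07, adjusted p 0.215, limma). Dll1, a Notch ligand, had 0.401 and 0.466 RPKM in GSK343 cells, against 1.78 and 3.54 in DMSO cells. Meioc, needed for meiotic prophase in germ cells, had 3.65 and 3.36 RPKM in GSK343 cells, against 11.9 and 6.39 in DMSO cells. Kcnj4, an inward rectifier potassium channel, had 2.56 and 1.67 RPKM in GSK343 cells, against 4.76 and 5.50 in DMSO cells. In each of these genes both GSK343 libraries stood below both DMSO libraries, as the naming rule required. The same held for 13.3% of all genes tested. The rest of the 12 were Npw, Ppp2r2c, Ccdc113, Cdkn1c, Rasd2, Galnt12 and Lingo3, with log2 differences from -1.26 to -0.92. Of the 12, all but Lefty1 had a DMSO mean below 10 RPKM.

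Of 43 imprinted genes tested, 5 were lower and 1 higher at an unadjusted p of 0.05 (limma), 11.6% and 2.33% against 1.92% and 2.85% of all genes, around a list median of 0.01, or -0.03 under median-of-ratios scaling. Of the 5, 3 lie on distal chromosome 7, in the imprinted region in which the paternal alleles are silenced by the noncoding RNA Kcnq1ot1 and, in extraembryonic tissue, carry H3K27me3. Cdkn1c (chr7:143458339-143461059, mm10), a CDK inhibitor, had 2.44 and 2.06 RPKM in GSK343 cells, against 5.65 and 5.29 in DMSO cells. Phlda2 (chr7:143501545-143503145), which restrains placental growth, had 9.61 and 11.7 RPKM in GSK343 cells, against 19.4 and 21.2 in DMSO cells. Ascl2, a trophoblast transcription factor, had 0.537 and 0.992 RPKM in GSK343 cells, against 1.68 and 2.33 in DMSO cells. All 3, singled out by their p-values, were lower in both GSK343 libraries, as were 13.3% of all genes tested. Their log2 differences were -1.0, -0.88 and -0.77. Kcnq1ot1 itself, named after its values were seen, had 1.31 and 1.12 RPKM in GSK343 cells, against 1.20 and 0.838 in DMSO cells. Not every gene of the region was lower in both libraries. Slc22a18, also named after its values were seen, had 1.63 and 2.95 RPKM in GSK343 cells, against 1.74 and 4.64 in DMSO cells, and overlapped. The other two lower genes were Dio3 and Mkrn3, and the higher one was Sfmbt2. Dio3, a deiodinase in the imprinted cluster of chromosome 12, had 0.0273 and 0 RPKM in GSK343 cells, against 0.363 and 0.470 in DMSO cells.

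The 250 bases before the start of 3 genes that were lower and 2 that were higher are printed to show the sequence under the marked starts, 5′ to 3′ on the gene's strand, from RefSeq on GRCm38.p6, with each CG pair in capitals. A deposited H3K27me3 peak lies over the starts of the first 4, and none over that of Mmp13. The Phlda2 window precedes a RefSeq start that lies inside the span given above for that gene, so the window lies inside that span too.
Plk5, chr10:80356209-80356458, plus strand: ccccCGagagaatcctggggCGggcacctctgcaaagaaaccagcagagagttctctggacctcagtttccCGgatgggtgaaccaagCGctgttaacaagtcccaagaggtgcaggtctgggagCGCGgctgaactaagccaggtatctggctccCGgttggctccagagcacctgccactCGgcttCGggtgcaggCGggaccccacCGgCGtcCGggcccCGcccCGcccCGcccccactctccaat
Phlda2, chr7:143502525-143502774, minus strand: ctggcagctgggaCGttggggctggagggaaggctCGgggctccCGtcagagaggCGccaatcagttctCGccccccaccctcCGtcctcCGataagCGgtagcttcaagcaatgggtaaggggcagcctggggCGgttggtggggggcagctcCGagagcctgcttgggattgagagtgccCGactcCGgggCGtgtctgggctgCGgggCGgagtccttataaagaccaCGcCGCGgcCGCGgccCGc
Ascl2, chr7:142969265-142969514, minus strand: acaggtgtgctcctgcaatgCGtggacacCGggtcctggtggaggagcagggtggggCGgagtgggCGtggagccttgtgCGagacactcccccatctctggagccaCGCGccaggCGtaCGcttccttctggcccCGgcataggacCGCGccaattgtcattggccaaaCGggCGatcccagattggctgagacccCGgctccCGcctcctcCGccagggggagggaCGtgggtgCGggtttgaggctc
Grem1, chr2:113758649-113758898, minus strand: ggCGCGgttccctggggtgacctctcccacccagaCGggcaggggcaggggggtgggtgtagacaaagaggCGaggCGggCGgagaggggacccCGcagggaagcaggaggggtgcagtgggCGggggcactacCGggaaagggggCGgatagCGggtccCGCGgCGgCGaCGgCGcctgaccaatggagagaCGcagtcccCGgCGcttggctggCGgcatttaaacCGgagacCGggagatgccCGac
Mmp13, chr9:7272264-7272513, plus strand: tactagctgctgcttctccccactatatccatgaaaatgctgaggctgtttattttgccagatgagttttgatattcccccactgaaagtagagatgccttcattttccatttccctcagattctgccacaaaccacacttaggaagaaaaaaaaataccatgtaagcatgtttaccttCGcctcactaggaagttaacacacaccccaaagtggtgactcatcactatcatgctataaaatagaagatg

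The windows of Plk5, Phlda2, Ascl2 and Grem1 held 16, 21, 19 and 24 CG pairs, and that of Mmp13 held 1. Of all 32851 RefSeq windows of this length, 25.4%, 16.3%, 19.7%, 12% and 92.1% held at least as many. CG-rich starts are the usual place of H3K27me3 in ES cells. At least 10 CG pairs were found for 71.2% of the 295 genes that were higher at an unadjusted p of 0.05 and had a window, for 75% of the 184 lower ones and for 77.5% of all 10854 tested genes with one. Among the 12 largest differences each way the windows were less alike. Of the 6 higher genes with a window 2 (33.3%) held at least 10 CG pairs, around a median of 2, and of the 8 lower ones 7 (87.5%) did, around a median of 22.5.

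PRC2 targets were compared with other genes in several ways, since loss of a repressive mark is a question the treatment poses. By the authors' deposited PRC2_target call, whose rule is not stated, 4040 tested genes were targets, 9182 were not and 794 had no call. The median log2 difference was 0.02 for targets and 0.06 for the others, and -0.05 for genes with no call. Median-of-ratios scaling put that of targets slightly below 0, at -0.0049. At an unadjusted p of 0.05, 161 targets (3.99%) were higher and 155 (3.84%) lower (limma), against 229 (2.49%) higher and 54 (0.588%) lower among the others. Genes with no call were mostly low, with a median of 0.524 RPKM, and 10 (1.26%) were higher and 60 (7.56%) lower. By this call, targets were about as often lower as higher in GSK343 cells, and the other genes were more often higher. Genes were also defined by peaks of Suz12, a PRC2 subunit, at a start or over the gene. These definitions also differ in the peak set used and in the level of the genes, so the part of peak position cannot be told apart. Of 189 genes with a merged Suz12 peak at a RefSeq start, 8 (4.23%) were higher and 12 (6.35%) lower, around a median of -0.02. These peaks were merged over wild-type ES cells, day 4 and day 8, and the median level of the 189 genes was 0.81 RPKM. Of 1448 genes with a wild-type ES cell Suz12 peak over the gene, 59 (4.07%) were higher and 10 (0.691%) lower. Among them 1132 had log2 differences above 0 and 316 below, around a median of 0.12. Over all genes tested, 8253 were above 0 and 5763 below, around a median of 0.04. The median level of the 1448 genes was 7.44 RPKM. Genes called no target, at 3 to 15 RPKM, had 2327 of 3295 above 0, around a median of 0.096.

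Genes were also grouped by the mark itself. A peak of the deposited H3K27me3 set lay over a RefSeq start of 2218 of 10854 genes with a start in the table. That set was merged over wild-type ES cells, day 4 and day 8, so it does not say which of its peaks were present in ES cells. Of these 2218 genes 91 (4.1%) were higher and 130 (5.86%) lower at an unadjusted p of 0.05, with a median of -0.02. Of the 8636 genes without a peak 204 (2.36%) were higher and 54 (0.625%) lower, with a median of 0.05. Read the other way, 70.7% of the 184 lower genes with a start carried the peak, 30.8% of the 295 higher ones did, and 20.4% of all did. Leaving out each ES library in turn gave 91 to 152 lower genes with a peak (4.1% to 6.85%) and 34 to 80 without one (0.394% to 0.926%), so the lower share stayed above that of genes without a peak in all 4 cases. On the higher side the order turned without DMSO replicate 1, with 2.16% of genes with a peak and 4.89% of genes without one.

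Marked genes are lowly expressed, so the call was also read within levels. Below 1 RPKM, 4.1% of targets and 1.20% of the others were lower at an unadjusted p of 0.05. From 1 to 3 RPKM these shares were 7.17% and 1.36%, from 3 to 15 RPKM 3.44% and 0.486%, and above 15 RPKM 0.62% and 0.366%. The share was higher for targets at every level, and most so from 1 to 15 RPKM. On the higher side the shares were 2.44% and 2.66%, 5.26% and 3.68%, 5.12% and 3.19%, and 3.10% and 1.61%, in the same order of levels.

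**Figure D3:**
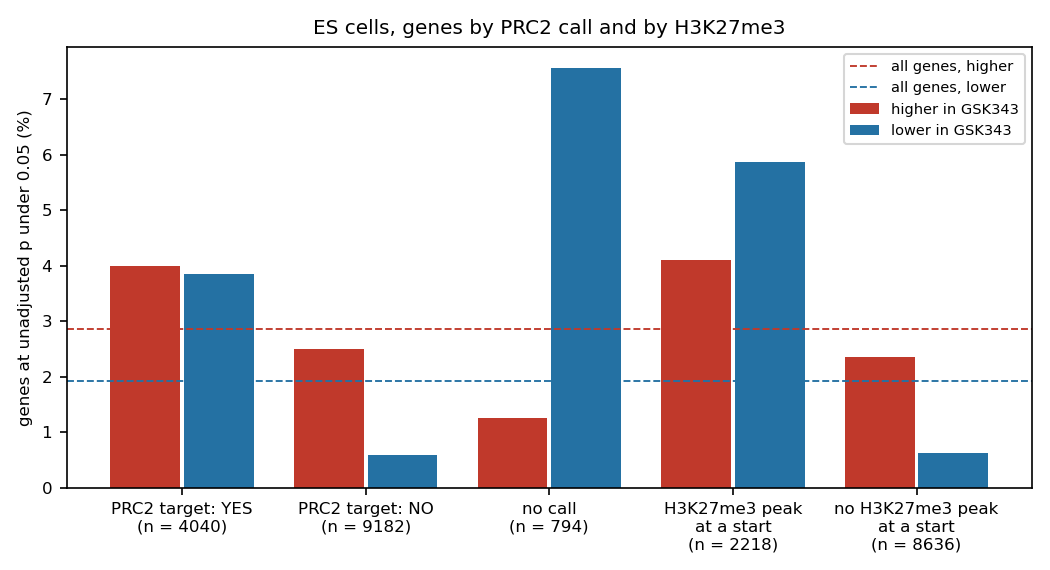
Bars give the percentage of genes at an unadjusted p of 0.05, higher (red) or lower (blue) in GSK343 ES cells, by the authors' PRC2 call and by an H3K27me3 peak at a start site, and dashed lines give all genes tested at 2.85% and 1.92%. Genes with an H3K27me3 peak reach 5.86% on the lower side, against 0.625% for genes without one.

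None of the 6 PRC2 core transcripts differed at an unadjusted p of 0.05 (limma), and for each the 95% interval lay inside -1 to 1. Ezh2 had 58.2 and 50.7 RPKM in GSK343 cells, against 57.9 and 37.1 in DMSO cells. Ezh1 had 20.2 and 34.2 RPKM in GSK343 cells, against 23.7 and 31.2 in DMSO cells. Eed had 79.4 and 57.9 RPKM in GSK343 cells, against 91.3 and 57.6 in DMSO cells, and Suz12 150 and 110 against 166 and 87.7. In all 4 genes the groups overlapped, and in each the libraries ranked by replicate number and not by treatment. An inhibitor of the enzyme need not change its transcript, so these values do not check the treatment.

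Among 7 accessory PRC2 genes none passed an unadjusted p of 0.05, the nearest being Phf19, a Polycomb-like subunit, with 2.98 and 2.94 RPKM in GSK343 cells, against 5.21 and 5.4 in DMSO cells (log2 difference -0.67, 95% interval -1.42 to 0.08). Of 22 PRC1 genes 2 (9.09% against 1.92% of all genes) were lower and none higher at that level. Cbx8, a reader of H3K27me3, had 0.695 and 0.717 RPKM in GSK343 cells, against 1.46 and 1.33 in DMSO cells. L3mbtl2, a subunit of a noncanonical PRC1, had 44.6 and 44.9 RPKM in GSK343 cells, against 54.4 and 58.0 in DMSO cells. Bmi1, a subunit of canonical PRC1, had 3.91 and 2.5 RPKM in GSK343 cells, against 2.01 and 1.27 in DMSO cells, with an interval of -0.06 to 1.39.

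No pluripotency gene passed the test. All 10 core pluripotency genes had 95% intervals inside -1 to 1, and none of them or of the 20 naive genes passed an unadjusted p of 0.05 (limma). Pou5f1, which encodes OCT4, had 492 and 488 RPKM in GSK343 cells, against 535 and 591 in DMSO cells. Sox2, its DNA-binding partner, had 320 and 342 RPKM in GSK343 cells, against 345 and 319 in DMSO cells. Nanog had 59.9 and 66.9 RPKM in GSK343 cells, against 53.2 and 65.7 in DMSO cells. The last 2 overlapped between groups, and Pou5f1 was lower in both GSK343 libraries by a log2 difference of -0.20 (95% interval -0.57 to 0.17). Esrrb, Zfp42 and Klf4, naive factors, had log2 differences of 0.12, 0.03 and 0.32. Tfcp2l1, also of the naive network, had 56.4 and 61.0 RPKM in GSK343 cells, against 38.4 and 43.5 in DMSO cells, and Nr0b1, which encodes DAX1, 34.4 and 24.7 against 45.7 and 40.3. Their intervals, -0.12 to 1.14 and -1.10 to 0.02, both held 0. The summed level of 7 ES cell markers was 2196 and 2576 RPKM in GSK343 cells, against 2209 and 2458 in DMSO cells, so the markers of the labelled cell type were high in all 4 libraries.

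Genes of the germline, of which several repressive systems hold many silent in ES cells, were mostly on the lower side. The list was not silent as a whole. In DMSO cells Tex19.1 had 60.9 and 89.4 RPKM, and Ddx4 had 10.4 and 6.24. Of 25 tested, 20 had log2 differences below 0 around a median of -0.26, and 5 (20.0% against 1.92% of all genes) were lower at an unadjusted p of 0.05 (limma), namely Dmrtb1, Taf7l, Meioc, Tdrd5 and Syce1. Dmrtb1, which controls entry into meiosis, had 0.347 and 0.209 RPKM in GSK343 cells, against 0.978 and 0.919 in DMSO cells. Tdrd5, a piRNA pathway gene, had 0.925 and 0.863 RPKM in GSK343 cells, against 2.04 and 2.15 in DMSO cells. Without any 1 library, 3 to 8 members were lower at that p.

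The INK4 inhibitors Cdkn2a and Cdkn2b, textbook Polycomb targets, did not pass an unadjusted p of 0.05. Cdkn2a had 19.9 and 11.6 RPKM in GSK343 cells, against 12.3 and 10.4 in DMSO cells, so the groups overlapped. Cdkn2b had 10.7 and 7.46 RPKM in GSK343 cells, against 5.08 and 7.21 in DMSO cells, with a log2 difference of 0.50 (95% interval -0.08 to 1.07).

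Hox genes, the model targets of Polycomb, stayed low. Of 39 listed genes 15 passed the filter on low values, and those 15 summed to 8.84 and 6.16 RPKM in GSK343 cells, against 5.93 and 5.10 in DMSO cells. At an unadjusted p of 0.05, 2 (13.3% against 2.85% of all genes) were higher and 1 (6.67% against 1.92%) lower (limma). Hoxd8 had 1.44 and 0.740 RPKM in GSK343 cells, against 0.445 and 0.587 in DMSO cells, and Hoxb9 1.19 and 1.33 against 0.754 and 0.812. Hoxb13 was the lower one, with 1.01 and 0.584 RPKM in GSK343 cells, against 1.20 and 1.25 in DMSO cells. Of 36 other Polycomb-repressed regulators tested, 1 (2.78%, near the 2.85% of all genes) was higher at that p and none lower. It was the homeobox gene Meis2, with 0.951 and 0.648 RPKM in GSK343 cells, against 0.184 and 0.134 in DMSO cells. Meis2 and the Hox genes are also expressed in fibroblasts, whose markers were higher in the same libraries, and their part in these values was not tested.

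Of 22 endoderm genes 17 had log2 differences above 0, around a median of 0.21, and of 17 formative and primed genes 15 were below 0, around a median of -0.11, against a median of 0.04 over all genes. Gata4, Gata6 and Sox17, endoderm factors, had log2 differences of 0.32, -0.20 and 0.30, each with an interval that held 0. None of these endoderm, formative and primed genes passed an unadjusted p of 0.05, and none of 18 cardiac, 18 blood and endothelial or 10 neural genes did. The filter used all 12 libraries and so kept genes near 0 in ES cells, for which a fall could not be seen. Cdh5, for example, had 0.0256 and 0 RPKM in GSK343 cells, against 0.0284 and 0 in DMSO cells. Of 17 primitive streak and mesendoderm genes 2 (11.8% against 1.92% of all genes) were lower at that p, Lefty1 and Wnt3a, and so were 2 of 17 trophoblast genes (11.8%), Ascl2 and Rhox9. Nodal, the ligand that Lefty1 inhibits, had 26.4 and 30.6 RPKM in GSK343 cells, against 32.8 and 35.8 in DMSO cells.

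None of 30 cell division, 24 cholesterol synthesis, 20 unfolded protein and amino acid response or 40 ribosomal protein genes passed an unadjusted p of 0.05, and their medians lay between -0.03 and 0.11. Among 24 p53 targets Sesn1 and Pmaip1 were higher (8.33% against 2.85% of all genes) and Bbc3 lower (4.17% against 1.92%) at that p. Of 23 interferon response genes 2 were higher and 2 lower (8.7% each way, against 2.85% and 1.92%), with B2m, the light chain of MHC class I, at 38.1 and 26.3 RPKM in GSK343 cells, against 17.5 and 22.3 in DMSO cells. Its partners in antigen processing Psmb9 and Tap1 were on the other side, with log2 differences of -0.92 and -0.68. Of 24 TGF-beta and contractile response genes, a list that shares members with the feeder list, 3 were higher at that p (12.5% against 2.85%), Lox, Ltbp2 and Tpm4, around a median of 0.46.

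**Figure D4:**
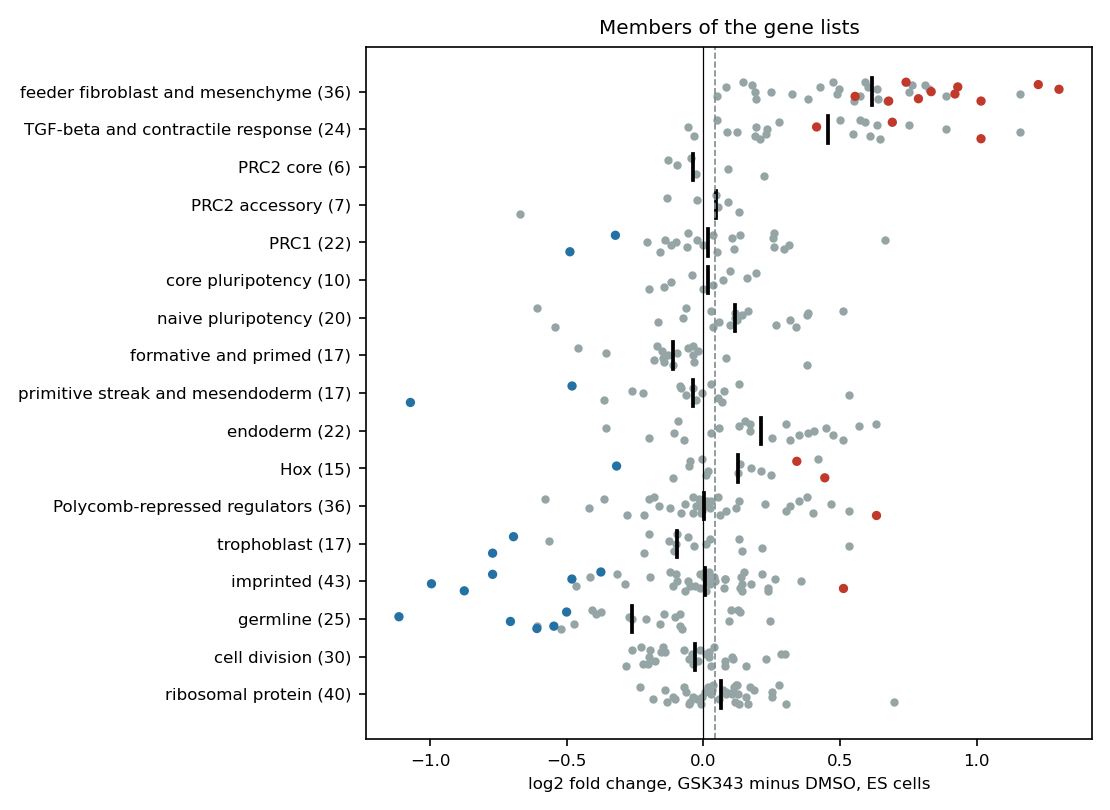
Each point is the log2 difference of 1 list member between GSK343 and DMSO ES cells, red or blue where its unadjusted p is under 0.05 and grey otherwise, with the number tested in brackets and a black bar at the list median. The feeder list lies to the right of 0 with a median of 0.62 and the germline list to the left with -0.26, and the dashed line marks the median of all genes at 0.04.

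The effect of GSK343 in ES cells was set against that at later stages, in libraries that share no sample with it. The difference between the effects, tested as an interaction, passed an adjusted p of 0.05 in 3 genes (0.0214%) at day 4, all with a larger effect at day 4. Dnmt3l, the cofactor of de novo DNA methyltransferases, had 13.8 and 13.3 RPKM in GSK343 ES cells, against 16.1 and 14.4 in DMSO ES cells. At day 4 Dnmt3l had 68.7 and 72.0 RPKM with GSK343, against 13.4 and 10.5 with DMSO, and the difference between the effects was 2.63 on the log2 scale (adjusted p 0.00761, limma). Nphs1, which encodes nephrin, had 11.6 and 11.9 RPKM in GSK343 ES cells, against 12.8 and 12.6 in DMSO ES cells, and 8.19 and 8.61 with GSK343 at day 4, against 1.95 and 1.79 with DMSO. Ltb, lymphotoxin beta, had 3.40 and 3.65 RPKM in GSK343 ES cells, against 4.70 and 4.58 in DMSO ES cells, and 3.21 and 4.03 with GSK343 at day 4, against 0.569 and 0.550 with DMSO. With GSK343 the day 4 level of Dnmt3l was above that of ES cells, and those of Nphs1 and Ltb were nearer to the ES cell levels than were those of the DMSO cultures. With 1 ES library left out, 0 to 2 genes passed this test.

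Of the 70 genes (0.499% of those tested) called higher with GSK343 at day 4, 2 were higher and 1 lower in ES cells at an unadjusted p of 0.05, and their median log2 difference was 0.07 in ES cells and 1.51 at day 4. Of the 18 (0.128%) called lower at day 4, 1 was lower and 1 higher in ES cells, with medians of -0.07 in ES cells and -0.99 at day 4. Over all genes tested, 2.85% were higher and 1.92% lower in ES cells at that unadjusted p. Counts this small cannot be told from those shares. Esrrb had a log2 difference of 0.12 in ES cells (95% interval -0.47 to 0.72) and of 2.13 at day 4 (1.53 to 2.73). Prickle1, a planar polarity gene, had -0.14 in ES cells (-0.63 to 0.35) and -1.64 at day 4 (-2.13 to -1.15). Cdkn2a had 0.40 in ES cells (-0.18 to 0.99) and 1.65 at day 4 (1.07 to 2.24). For Esrrb, Prickle1 and Cdkn2a the intervals of the 2 stages do not overlap. The adjusted p of the difference was nevertheless 0.138, 0.192 and 0.414 (limma), in that order.

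At day 8 the difference from the effect in ES cells passed the test in 2794 genes (19.9%), 1253 with a higher and 1541 with a lower value at day 8. Pou5f1 had 421 and 465 RPKM with GSK343 at day 8, against 60.9 and 54.5 with DMSO (difference between effects 3.12, adjusted p 2.71e-05, limma). Lefty1, lower with GSK343 in ES cells, had 41.4 and 49.0 RPKM with GSK343 at day 8, against 1.77 and 1.62 with DMSO. Its effect was thus of opposite sign at the later stage, with a difference of 5.17 (adjusted p 1.66e-06, limma). Phlda2 kept its direction, with 3.64 and 3.14 RPKM with GSK343 at day 8, against 48.5 and 41.4 with DMSO. Of the genes that were lower at an unadjusted p of 0.05 in ES cells, 18.2% were lower at that p at day 4, against 5.02% of all genes, and 20.4% at day 8, against 21.1% of all genes. For the higher genes these shares were 9.50% against 5.32% at day 4 and 14.5% against 21.0% at day 8. The p-values of all stages come from the same fit, in which each gene has the same estimate of spread at every stage. A gene of small spread can thus pass at several stages without a shared effect, which can raise these shares above those of all genes.

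**Figure D5:**
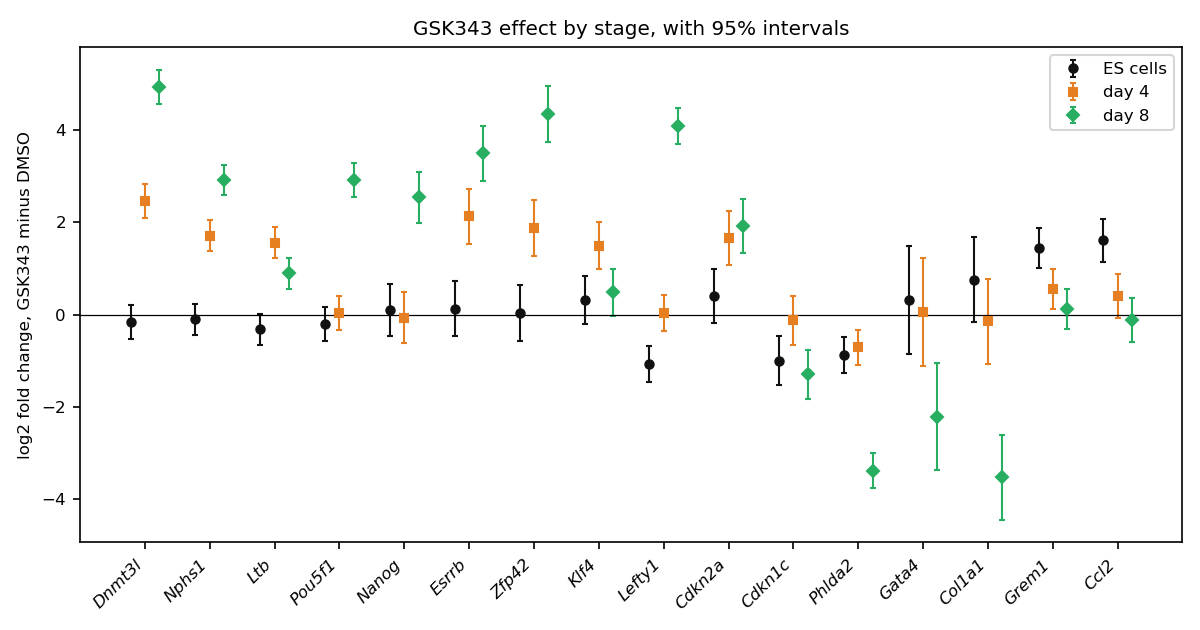
Points are log2 differences of GSK343 minus DMSO in ES cells (black), day 4 (orange) and day 8 (green), with 95% intervals from limma. Dnmt3l goes through -0.16, 2.47 and 4.94 over the 3 stages, while Cdkn1c and Phlda2 are below 0 in ES cells and at day 8.

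ES cells with mutant EZH2, the other way in which the series altered PRC2, gave a further set of libraries. None of them is among the GSK343 and DMSO libraries, though the cells are of the same CJ7 line. Of 250 genes lower at an unadjusted p of 0.05 in GSK343 cells and tested in both tables, 27 (10.8%) were lower at that p in mutant against wild-type ES cells, against 2.31% of all genes, and they made up 8.49% of the 318 lower in the mutant. Of the 250, 74.4% had the same sign in the mutant, against 49.5% of all genes. Of 388 genes higher in GSK343 cells 26 (6.70%) were higher in the mutant, against 3.76% of all genes, and 55.4% had the same sign, against 50.5%. Across the 13792 genes the 2 sets of log2 differences had Pearson's r of 0.16, a description over genes, which are not independent replicates.

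Cdkn1c, Phlda2 and Dll1 had lower means with both perturbations. Cdkn1c had 1.22, 3.01 and 1.12 RPKM in mutant ES cells, against 5.67, 3.30 and 4.56 in wild-type ES cells, without overlap (log2 difference -1.03). Phlda2 had 7.99, 5.99 and 1.8 RPKM in mutant ES cells, against 21.1, 12.5 and 7.38 in wild-type ES cells, so that the groups overlapped. Dll1 had 2.04, 0.762 and 0.136 RPKM in mutant ES cells, against 3.97, 5.58 and 1.61 in wild-type ES cells, and overlapped as well. None of the 3 passed the adjusted threshold in the mutant contrast, where the adjusted p was 0.84, 0.852 and 0.309 (limma). Dnmt3l had a log2 difference of -0.16 (95% interval -0.53 to 0.21) for GSK343 and 2.04 for the mutant (adjusted p 0.482, limma), and the gap between them was not tested because the tables were normalized separately.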

How the data were processed

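RNA-seq values were analysed from 12 libraries in 6 groups, GSK343 and DMSO cultures as ES cells and at day 4 and day 8. They are RPKM made by the authors and deposited with gene lengths, per the file headers. The submitters' processing notes name featureCounts 1.6.1, STAR 2.5.3, HOMER 4.10.3 and edgeR on mm10, and Bowtie2 2.3.4.3 for CUT&RUN. Which annotation and strand setting were used was not found in the labels or headers. RPKM times length gave whole reads within 0.02 for 100% of values, from which depth was read; 0 per-sample columns were left aside.

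Values were put on log2(RPKM + 1), genes with RPKM of at least 0.5 in 2 or more libraries were kept (14016 of 14607), and 1 limma 3.58.1 fit in R 4.3.3 with 6 groups and trended eBayes gave differences, intervals and Benjamini-Hochberg p-values, which pool the spread over all groups. The 3 mutant and 3 wild-type ES libraries come from another table and its own fit. With 2 libraries a side, an exact permutation test of 1 gene cannot go below a two-sided p of 0.333. The fit was also run on simulated counts drawn independently for each library. These lack the shared deviations of same-numbered libraries, so that run does not speak to them.

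The 31 gene lists and the named genes were chosen with earlier results of these data known. Named genes are the 12 largest differences in each direction at an unadjusted p of 0.05 with libraries that do not overlap and the higher of both group means at 1 RPKM or more, without predicted, RIKEN, LOC, microRNA, snoRNA and histone genes; genes called with 1 ES library left out; the 3 smallest p-values of each list described; the 5 largest differences each way among PRC2 targets; and a fixed set of Polycomb, pluripotency and lineage genes. The deposited PRC2_target call and peak positions were used as the authors gave them, with RefSeq starts on GRCm38.p6, the assembly that mm10 denotes. Alternatives were scaling, pseudocount, filters, voom on the recovered reads, eBayes without trend, the 4 ES libraries alone, a replicate block, each ES library left out, and other definitions of PRC2 targets.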

Additional observations from a re-analysis of the deposited data

Results flagged for a closer look

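The effect of GSK343 differed between stages by an interaction test (limma, Benjamini-Hochberg) in 3 genes between day 4 and ES cells and in 2794 between day 8 and ES cells. The 3 genes of day 4 were Dnmt3l, with a difference between effects of 2.63 on the log2 scale (adjusted p 0.00761), Ltb with 1.88 (adjusted p 0.0252) and Nphs1 with 1.82 (adjusted p 0.0252). Of 93 genes with an ES cell difference in the text, 54 had an effect that differed between day 8 and ES cells. Of these, 30 had a higher and 24 a lower value at day 8. Over all genes tested the share was 19.9%. Many of the 93 were named by the same ES cell values that enter this difference, so the count is not a result about them. The 6 largest on the higher side were Lefty1 with 5.17, Dnmt3l with 5.10, Nr0b1 with 4.40, Zfp42 with 4.32, Esrrb with 3.38 and Meioc with 3.24, all on the log2 scale. Lefty1 and Meioc were lower with GSK343 in ES cells and higher at day 8. The 6 largest on the lower side were Twist2 with -4.72, Col1a1 with -4.28, Gata6 with -3.19, Vim with -3.02, Hoxd8 with -2.59 and Cd44 with -2.55. Of these, Twist2, Col1a1 and Vim are members of the feeder list.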

How the results depend on the processing

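The count of 0 genes at an adjusted p of 0.05 held under every alternative that kept all libraries, and leaving out 1 ES library gave 0 to 16 genes and 456 to 867 at an unadjusted p of 0.05. Replicate numbers are shared between the groups, but nothing says what they stand for. Libraries of the same number deviated together from their group means, with a correlation of 0.67 in ES cells, 0.63 at day 4 and 0.42 at day 8, yet with 2 pairs a stage the numbers do not establish a pairing. With a replicate block there were 1280 genes at an unadjusted p of 0.05, and 10 and 4377 with an effect that differed at day 4 and day 8 from ES cells. With a replicate block within each stage, an alternative chosen after seeing the data, these were 1770, 119 and 5196, with 9 of the 10 and 92 of the 119 genes higher at day 4, and the block changed the adjusted count in ES cells in neither case. With 1 ES library left out, 0 to 2 genes differed at day 4 and 2016 to 2207 at day 8. The median of PRC2 targets was 0.022, moving to -0.0049 with median-of-ratios scaling, 0.052 with voom on recovered reads, 0.12 for genes with a wild-type ES cell Suz12 peak over the gene, -0.019 for H3K27me3 at a start site (chosen after seeing the data) and -0.0063 to 0.033 with 1 library left out. The feeder median was 0.21 to 1.08 and the germline median -0.40 to -0.15 with 1 library left out. Of 93 genes, 82 kept their sign throughout. With 1 library left out the sign of the others turned, over ranges of -0.42 to 0.23 for Eed, -0.41 to 0.32 for Ezh1, -0.091 to 0.54 for Ezh2, -0.37 to 0.55 for Suz12, -0.053 to 0.25 for Nanog, -0.058 to 0.052 for Sox2, -0.20 to 1.37 for Gzme, -0.093 to 1.8 for Inhba, -0.085 to 1.90 for Tfpi2 and -0.21 to 0.50 for Thy1, and Zfp42 was -0.012 with median-of-ratios scaling. The cause of these changes was not tested. GSK343 replicate 2, at 5.01 M reads, limits the genes below about 1 RPKM.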
